A study of Mus musculus with 19 samples.

Results

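The Zfp900-series zinc finger genes are the rows of the kidney count table whose symbol is Zfp9 followed by 2 further digits. There were 66 of them among 40413 rows, and the table held 321 other Zfp genes with a number. The name alone defines them, but the set was selected on edgeR strain differences already seen in these counts, for genes such as Zfp969 and Zfp970, so every strain difference below is a description of the values that led to the choice and carries no test. The Cmpd17b comparisons within a strain were tested. The study profiled whole kidney RNA from adult mice of 2 inbred strains, BPH/2J, which is hypertensive, and BPN/3J, its normotensive counterpart. Each mouse was injected intraperitoneally once a day for 28 days with vehicle or with Cmpd17b at 50 mg/kg/day, a small-molecule agonist of formyl peptide receptors. The groups used here were 4 BPN/3J vehicle, 5 BPN/3J Cmpd17b, 5 BPH/2J vehicle and 4 BPH/2J Cmpd17b libraries, 1 library to a mouse. A strain difference here is one between 2 inbred genomes, so blood pressure and every other difference between the strains cannot be told apart.

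Genes of this name series encode proteins with tandem cysteine-histidine zinc fingers, most of them preceded by a KRAB domain. Each finger reads a few DNA bases through a short helix, and the KRAB domain recruits TRIM28, which brings the histone methyltransferase SETDB1 to silence the bound site. Many such proteins bind transposable elements, and their genes lie in clusters of tandem copies that are young, numerous in the mouse and variable between inbred strains. In the GENCODE annotation of GRCm38, a build older than the one behind the counts, 61 of the 66 genes had a coding sequence and 58 of these encoded at least 1 finger of the form C, 2 residues, C, 12 residues, H, 3 to 5 residues, H, with a median of 11 fingers and a maximum of 21. KRAB domains were not searched for. A position was known for 63 genes on 13 chromosomes, and 41 of them lay in 5 clusters of at least 3 members no more than 1 Mb apart. Chromosome 4 held 14 members in its cluster, chromosomes 2 and 17 held 10 each, chromosome 7 held 4 and chromosome 8 held 3.

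The 18 libraries held 21400111 to 40998650 estimated counts, of which 7373 to 16177 fell on these 66 genes. Proximal tubule markers summed to 29948 to 63029 CPM (estimated counts scaled to library size, in this paragraph without TMM factors) in each of the 18. In later paragraphs CPM values are also scaled with TMM factors unless stated. A library labelled BPH/2J Cmpd17b (its replicate 1) was left out by the rule, since it has a heart profile. Its proximal tubule markers summed to 93.4 CPM, and Myh6, a heart muscle myosin, stood at 14200 CPM where the 18 others had 28.3 CPM or less. The 4 other treated BPH/2J libraries also carried more heart muscle RNA, 121.7 to 143.6 CPM over 10 markers, than the 3 other groups at 4.89 to 12.9 CPM. Mitochondrial genes took 16% to 26.6% of the counts in BPH/2J libraries and 12.8% to 16.3% in BPN/3J libraries. The part of either in the values below was not tested. In whole kidney RNA, fewer cells of a type and less RNA per cell cannot be told apart.

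Together the 66 genes took 394.6 to 405.1 CPM (without TMM factors) in vehicle BPN/3J kidneys and 379.4 to 414.5 in treated BPN/3J. They took 351.7 to 393.1 in vehicle BPH/2J and 344.5 to 358.7 in treated BPH/2J. Counts were found in all 18 libraries for 46 members, and 51 members passed the filter on low counts and entered the fit. The other 15 summed to at most 17 counts over the 18 libraries, and 3 of them (Zfp936, Zfp968 and Zfp999) had none. Of these 15, 9 lie in the chromosome 2 and chromosome 4 clusters. By mean CPM the leading members were Zfp970 at 25.6, Zfp950 at 24.9, Zfp937 at 19, Zfp946 at 18.3 and Zfp942 at 18. Per kilobase of exon the order changed, with Zfp970 at 11.8 CPM per kb, Zfp969 at 7.68, Zfp937 at 6.80, Zfp944 at 6.16 and Zfp946 at 5.23. Zfp950 ranged over 26.3 to 28.7 CPM in vehicle BPN/3J, 22.2 to 30.2 in treated BPN/3J, 18 to 30.9 in vehicle BPH/2J and 14 to 39.0 in treated BPH/2J. Its groups overlapped throughout, as did those of Zfp942 at 17.4 to 22.5, 18 to 20.8, 15.5 to 19.1 and 14.7 to 19.3 CPM in the same order. Zfp937 ranged over 21.9 to 30.2, 13.1 to 31.7, 11.6 to 26.9 and 11.9 to 21.3 CPM, and Zfp946 over 18.8 to 21.1, 17.3 to 20.6, 16.3 to 17.1 and 15.3 to 21.5. Neither passed between the strains in either arm, so of the 5 most abundant members Zfp970 was the one that did. The vehicle ranges of Zfp946 nevertheless did not overlap between the strains.

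Many of these genes are close copies of each other, which bears on the values of the members that share sequence. Of the 62 members with a transcript in GENCODE, 34 had another gene, and 21 another member, at 90% identity or more over at least 50% of the shorter transcript. Reads of 150 bases cannot always be placed between such copies: 14 members shared 20% or more of their 150-base windows letter for letter with another gene, and 35 shared none. Zfp969 and Zfp970 lie in the chromosome 2 cluster, and Zfp991 and Zfp992 lie in the chromosome 4 cluster. The coding stretches below are shown because the members of each pair moved in opposite directions between the strains. They are from the longest GENCODE M21 coding sequences, 5′ to 3′. Capitals mark the bases that differ in a pair's alignment, which had no gaps inside it. The first is the start of the aligned coding sequence, which in Zfp970 reads the same over all 150 bases, and the others are the 150 bases of each pair with most differences, 30 for Zfp969 and Zfp970 and 2 for Zfp991 and Zfp992.
Zfp969 coding bases 58 to 207, same as Zfp970 bases 1 to 150: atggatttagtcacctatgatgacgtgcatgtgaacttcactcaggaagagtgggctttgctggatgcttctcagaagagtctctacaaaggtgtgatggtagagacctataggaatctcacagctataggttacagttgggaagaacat
Zfp969 coding bases 948 to 1097: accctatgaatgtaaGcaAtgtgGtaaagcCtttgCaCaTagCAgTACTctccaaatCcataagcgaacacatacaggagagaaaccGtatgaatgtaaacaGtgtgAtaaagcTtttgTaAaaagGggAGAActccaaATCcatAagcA
Zfp970 coding bases 891 to 1040: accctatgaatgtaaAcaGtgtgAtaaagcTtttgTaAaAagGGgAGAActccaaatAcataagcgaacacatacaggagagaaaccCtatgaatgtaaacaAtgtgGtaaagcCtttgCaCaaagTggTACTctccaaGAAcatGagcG
Zfp991 coding bases 577 to 726: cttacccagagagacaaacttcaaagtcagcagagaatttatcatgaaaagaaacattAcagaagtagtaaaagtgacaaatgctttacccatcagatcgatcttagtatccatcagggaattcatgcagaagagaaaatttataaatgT
Zfp992 coding bases 577 to 726: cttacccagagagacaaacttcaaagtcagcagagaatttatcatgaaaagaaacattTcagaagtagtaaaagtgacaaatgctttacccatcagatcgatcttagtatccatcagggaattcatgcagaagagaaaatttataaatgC

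Over the 1398 aligned coding bases of Zfp969 and Zfp970, 101 differed, and 86 of these lay in finger motifs. Each finger holds 4 helix codons that are known to face the DNA. In those codons 41 of 132 bases differed (31.1%), against 8.02% in the rest of the fingers and 2.13% outside them. Zfp991 and Zfp992 differed at 8 of 1719 aligned bases, 3 of them in fingers and 0 of 132 in the helix codons. Zfp969 encodes 11 fingers and Zfp970 14, while Zfp991 and Zfp992 encode 11 each. The alignment of Zfp969 with Zfp970 had no gaps inside it, so it can set a finger against one that is not its counterpart. In the stretch shown, the later finger of Zfp969 reads much like the earlier finger of Zfp970. The part of such mismatched fingers in the 101 differences and in the 31.1% was not tested. The longest Zfp969 transcript is also contained, letter for letter, in that of Zfp966, which had 1 count in the 18 libraries, so all Zfp969 windows are shared. For Zfp970, 7.25% of windows were shared with another gene, for Zfp991 62.8% and for Zfp992 21.3%. The values of the chromosome 2 copies and of Zfp991 to Zfp993 are therefore uncertain as to which copy the reads came from.

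Between vehicle-treated strains, 15 of the 51 tested members passed an edgeR quasi-likelihood adjusted p of 0.05, 9 higher and 6 lower in BPH/2J. That is 29.4% of members, where 10.8% of all 16421 tested genes passed, 5.82% higher and 4.94% lower. Between Cmpd17b-treated strains, 18 members passed (35.3%, where 10.4% of all genes did, 5.71% higher and 4.65% lower), 11 higher and 7 lower in BPH/2J. The CPM ranges of the strains did not overlap for 18 members under vehicle (13.6% of all genes) and 16 under Cmpd17b (12.8% of all genes), and for 13 members, 8 higher and 5 lower in BPH/2J, this held in the same direction in both arms (6.79% of all genes). These shares describe the genes as chosen. The median log2 difference, BPH/2J over BPN/3J, was −0.10 under vehicle and −0.05 under Cmpd17b (all genes 0.04 and 0.01), and the median size of the difference was 0.31 and 0.34 (all genes 0.25 and 0.24). Members that passed thus went in both directions. By the test, 13 members passed in the same direction in both arms, which share no library (6.75% of all genes): Zfp932, Zfp941, Zfp951, Zfp969, Zfp971, Zfp981, Zfp985, Zfp990 and Zfp992 were higher in BPH/2J, and Zfp970, Zfp982, Zfp984 and Zfp991 were lower. They are not quite the 13 without overlap, which include Zfp952 and not Zfp971. Zfp939 and Zfp964 passed only under vehicle, and Zfp931, Zfp933, Zfp952, Zfp973 and Zfp976 only under Cmpd17b. Each of these 7 also lost its call in at least 1 fit that left out a library, and of the 13 only Zfp981 (vehicle) and Zfp941 (Cmpd17b) did. For none of the 7 did the interaction between strain and Cmpd17b pass edgeR's test.

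**Figure D1:**
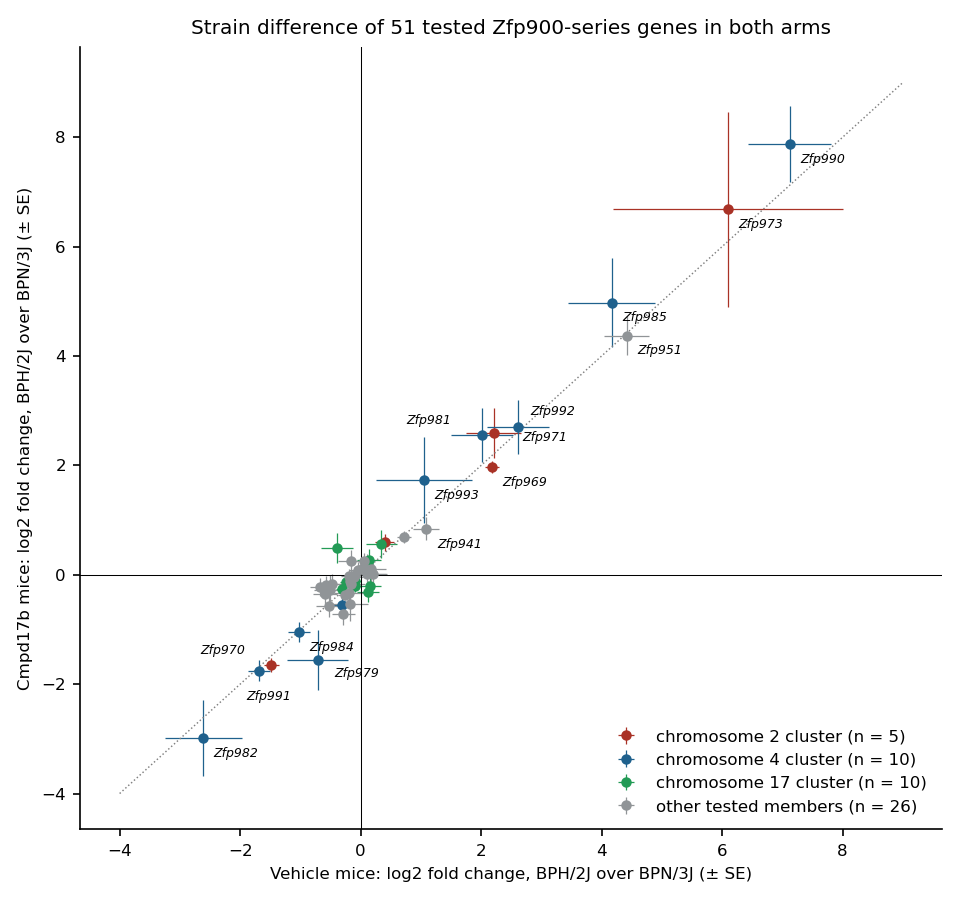
Fitted log2 difference between BPH/2J and BPN/3J in vehicle mice (horizontal axis) and in Cmpd17b mice (vertical axis) for the 51 tested members, with lines of 1 SE, colours by cluster and a dotted line where both are equal. The members far from 0 are mostly those of the chromosome 2 and chromosome 4 clusters, on both sides of 0, and the positions of Zfp973, Zfp985 and Zfp990 rest on BPN/3J groups with almost no counts and are no measure of their fold.

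Of the 13 members that passed in both arms, 10 belong to the chromosome 2 and chromosome 4 clusters. In the chromosome 2 cluster 3 of 5 tested members passed under vehicle and 5 of 5 under Cmpd17b. In the chromosome 4 cluster 7 of 10 and 8 of 10 passed. Both clusters together gave 10 of 15 (66.7%) and 13 of 15 (86.7%), against 5 of 36 tested members elsewhere (13.9%) in each arm. Members with a close copy among the members passed in 9 of 14 cases under vehicle (64.3%) and 10 of 14 under Cmpd17b (71.4%), and those without one in 6 of 37 (16.2%) and 8 of 37 (21.6%). Except for Zfp947 and Zfp995 on chromosome 17, neither of which passed, all tested members with such a copy lay in the chromosome 2 and chromosome 4 clusters. Having a copy and lying in these clusters therefore cannot be told apart here. Most members that passed thus lay in 2 places in the genome, and 9 of the 15 under vehicle and 10 of the 18 under Cmpd17b had another member at 90% identity or more.

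**Figure D2:**
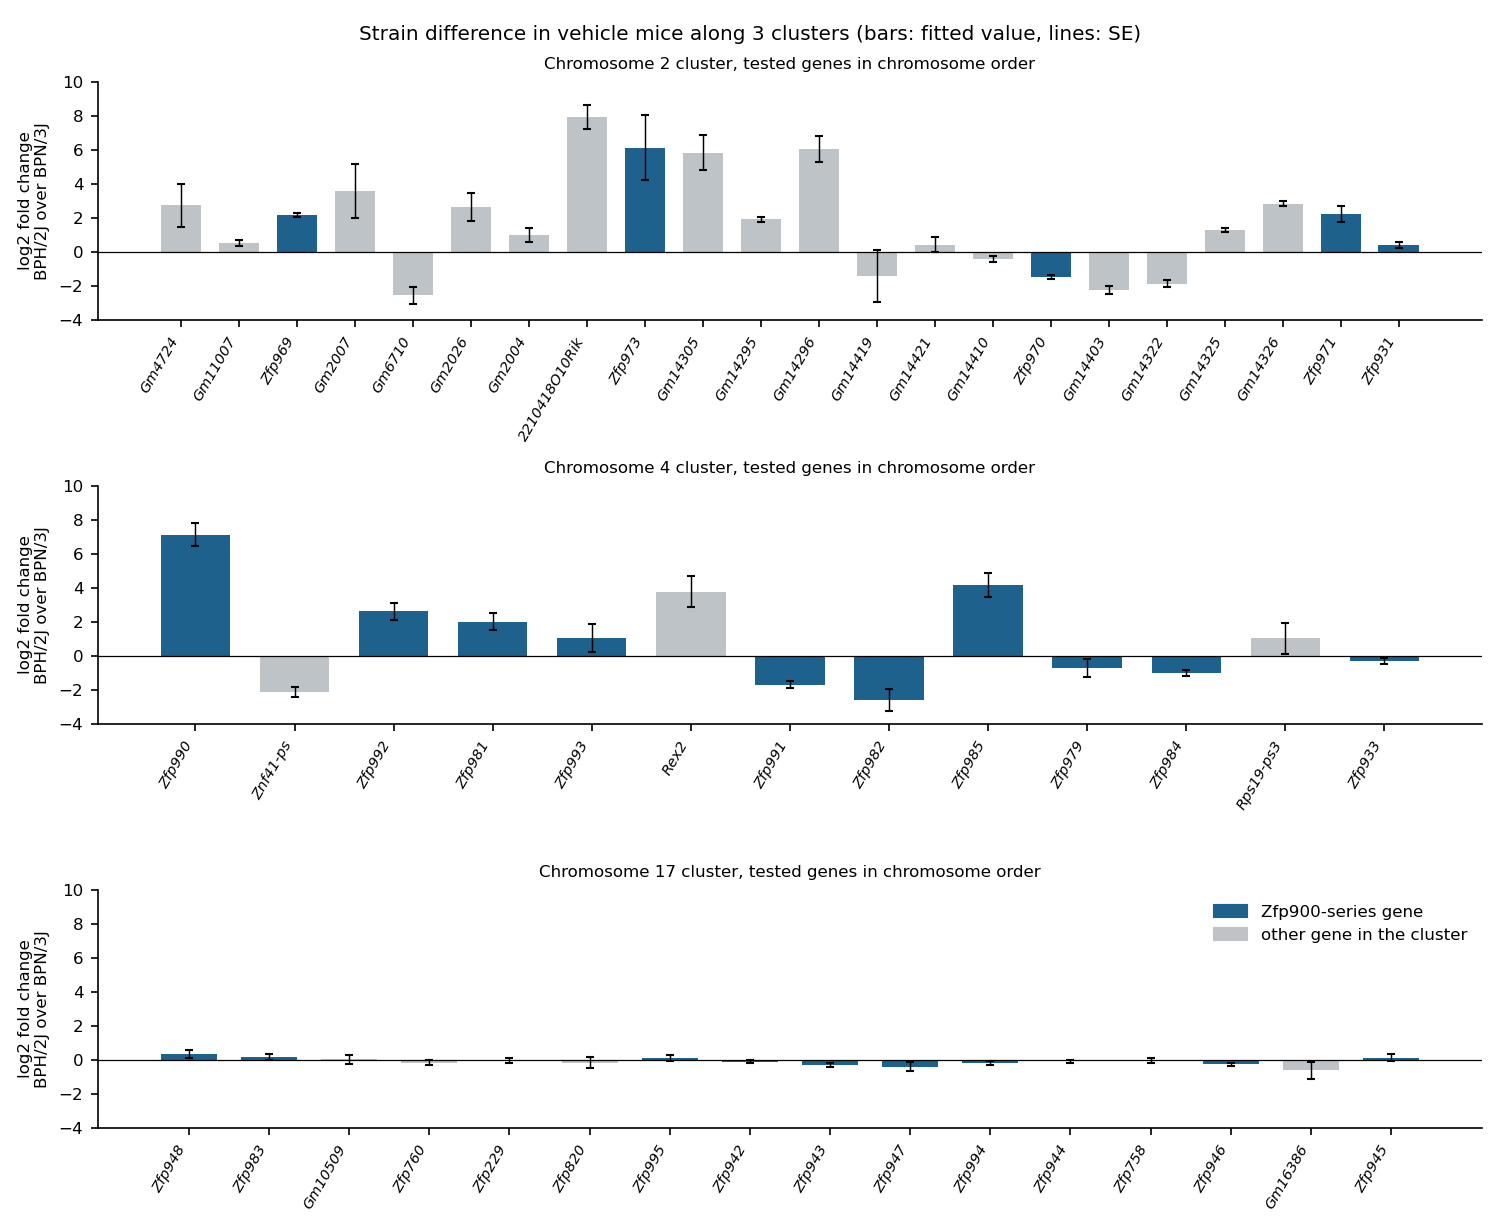
Fitted log2 difference between BPH/2J and BPN/3J in vehicle mice (bars, vertical axis, lines of 1 SE) for the tested genes of 3 clusters in GRCm38 chromosome order (horizontal axis), with members in blue and other genes in grey. Bars reach far to both sides of 0 on chromosomes 2 and 4, while the members on chromosome 17 lie between −0.39 and 0.35, and tall bars with almost no BPN/3J counts, such as Zfp973 and Zfp990, are no measure of the fold.

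In the chromosome 2 cluster Zfp970 was the leading copy in BPN/3J and Zfp969 in BPH/2J. Zfp970 stood at 36.4, 39.1, 39.7 and 40.6 CPM in vehicle BPN/3J kidneys and at 9.37, 14.2, 14.2, 14.4 and 17.5 in vehicle BPH/2J. In treated mice it stood at 34.2, 36.7, 37.8, 38.2 and 40.3 in BPN/3J and at 11.5, 11.7, 12.3 and 12.4 in BPH/2J. Every BPH/2J library was below every BPN/3J library, with a log2 difference of −1.48 ± 0.12 (SE) under vehicle and −1.64 ± 0.13 under Cmpd17b. Zfp969 stood at 4.44, 4.96, 5.16 and 5.19 CPM in vehicle BPN/3J and at 19, 21.4, 22.4, 23.4 and 25.5 in vehicle BPH/2J. In treated mice it stood at 4.60, 5.23, 5.23, 5.78 and 6.20 in BPN/3J and at 19.3, 21, 21.8 and 22.3 in BPH/2J. Here every BPH/2J library was above every BPN/3J library, by 2.18 ± 0.11 and 1.97 ± 0.11 on the log2 scale.

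Zfp971, another copy in this cluster, was also higher in BPH/2J. It stood at 0.295, 0.684, 0.997 and 1.04 CPM in vehicle BPN/3J and 2.29, 2.54, 2.98, 3.96 and 5.53 in vehicle BPH/2J, which did not overlap. In treated mice it stood at 0.340, 0.391, 0.443, 0.665 and 1.11 in BPN/3J and 1.04, 3.52, 4.63 and 4.95 in BPH/2J, where the lowest BPH/2J library fell inside the BPN/3J range. The log2 differences were 2.21 ± 0.46 and 2.59 ± 0.45. Zfp973, which shares 73.8% of its windows with other genes, had no count in any of the 9 BPN/3J libraries. Its counts were 0, 0, 7, 14 and 22 in vehicle BPH/2J and 0, 9, 15 and 20 in treated BPH/2J, so that 3 of 9 BPH/2J libraries also had none. With the BPN/3J group set to a floor of 3 counts, the ratio of strain levels was 13.5 under vehicle and 23.6 under Cmpd17b. The lower 95% counting limit of the ratio was 10.5 and 18.4. Both cover counting error only. Zfp931, at the far end of the cluster and without shared windows, differed little: 3.93 to 4.82 and 3.71 to 4.24 CPM in vehicle and treated BPN/3J and 4.75 to 7.0 and 4.50 to 6.96 in BPH/2J. Its log2 difference was 0.40 ± 0.16 under vehicle and 0.59 ± 0.15 under Cmpd17b.

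In the chromosome 4 cluster 4 members passed as higher and 3 as lower in BPH/2J in both arms. Zfp990 was all but absent from BPN/3J, with 2 counts over the 4 vehicle and 1 count over the 5 treated libraries, against 381 and 221 counts in the BPH/2J groups. Its level in BPH/2J was 1.49, 1.69, 1.93, 3.49 and 3.96 CPM under vehicle and 1.44, 1.87, 1.97 and 4.50 under Cmpd17b. The ratio of its strain levels was 179 under vehicle (95% counting interval 49.3 to 1485) and 356 under Cmpd17b (63.2 to 14126). Zfp985 followed the same pattern at a lower level, with 5 and 2 counts in the BPN/3J groups and 0.303, 0.366, 0.665, 0.938 and 1.12 CPM in vehicle and 0.234, 0.568, 0.623 and 0.692 CPM in treated BPH/2J. Its log2 difference was 4.17 ± 0.72 under vehicle, and its ratio under Cmpd17b was 40.3 (10.6 to 342). Neither gene shared a 150-base window with another gene in the GRCm38 transcripts.

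Zfp991 and Zfp992 had opposite patterns, as Zfp969 and Zfp970 did. Zfp991 stood at 11.4, 11.6, 12.1 and 14.5 CPM in vehicle BPN/3J and 3.08, 3.10, 3.15, 3.87 and 6.18 in vehicle BPH/2J. In treated mice it stood at 8.85, 10.3, 10.4, 10.6 and 12.2 in BPN/3J and 2.69, 2.94, 3.29 and 3.52 in BPH/2J. The BPH/2J libraries were all lower, with log2 differences of −1.69 ± 0.18 under vehicle and −1.75 ± 0.19 under Cmpd17b. Zfp992 stood at 1.11, 1.85, 2.03 and 3.03 CPM in vehicle BPN/3J and 4.72, 8.64, 8.75, 14.1 and 25.4 in vehicle BPH/2J. In treated mice it stood at 1.39, 1.44, 1.96, 2.23 and 2.51 in BPN/3J and 5.59, 5.72, 10.9 and 27.7 in BPH/2J. All 9 BPH/2J libraries were above all 9 BPN/3J libraries, with log2 differences of 2.61 ± 0.52 and 2.7 ± 0.50, but the BPH/2J libraries themselves were spread from 4.72 to 27.7 CPM. The 4 BPH/2J libraries with most Zfp992 were those where the 10 most abundant genes took 25.2% to 34.3% of counts and mitochondrial genes 19.3% to 26.6%, while in the 5 others these shares were 20.1% to 22.5% and 16% to 18%. The part of library composition in that spread was not tested.

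The remaining members of this cluster were at lower levels or moved less. Zfp982 stood at 0.762, 0.943, 1.07 and 1.34 CPM in vehicle BPN/3J and 0.0302, 0.0373, 0.0879, 0.197 and 0.519 in vehicle BPH/2J, and ranged over 0.849 to 2.09 and 0 to 0.301 in the treated groups. It was lower in every BPH/2J library, with log2 differences of −2.61 ± 0.64 and −2.99 ± 0.69, and it shared no window with another gene. Zfp984 was at 7.83 to 10.3 and 7.71 to 9.21 CPM in vehicle and treated BPN/3J and at 3.63 to 5.25 and 2.84 to 6.0 in BPH/2J, again without overlap, with log2 differences of −1.02 ± 0.18 and −1.05 ± 0.19. Zfp981 was rare in both strains, at 0.0471 to 0.147 and 0.0340 to 0.168 CPM in BPN/3J and 0.169 to 0.672 and 0.404 to 0.803 in BPH/2J, with log2 differences of 2.01 ± 0.52 and 2.56 ± 0.49. Zfp933 passed under Cmpd17b only, at −0.56 ± 0.16 against −0.31 ± 0.16 under vehicle. Zfp993, at 1.05 ± 0.80 and 1.73 ± 0.79, and Zfp979, at −0.71 ± 0.51 and −1.56 ± 0.55, did not pass in either arm.

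**Figure D3:**
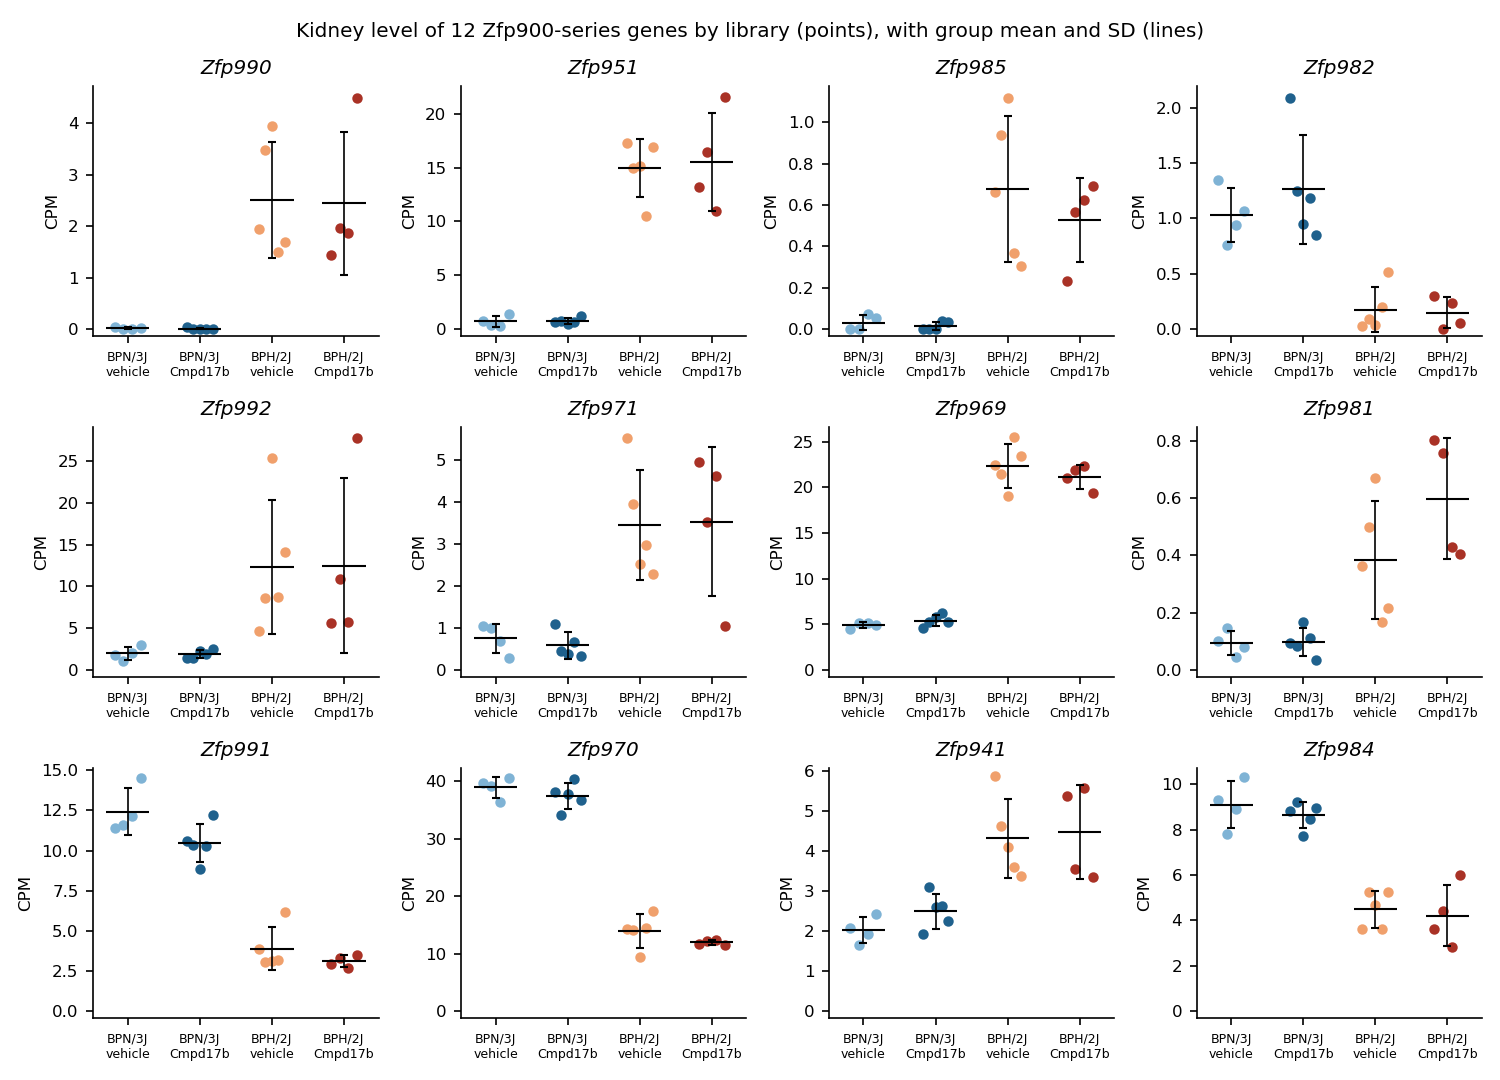
CPM in each library (points, linear vertical axis from 0) by strain and treatment (horizontal axis) for the 12 members with the largest vehicle strain difference without overlap, with lines at the group mean and SD. Zfp970, Zfp982, Zfp984 and Zfp991 sit lower in both BPH/2J groups and the 8 others sit higher, with 1 treated BPH/2J library of Zfp971 inside the BPN/3J range.

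The sums of close copies differed less between the strains than the copies did. Zfp969 and Zfp970 together made 43.9 ± 1.66 CPM (SD, n = 4) in vehicle BPN/3J, 42.8 ± 2.59 (n = 5) in treated BPN/3J, 36.3 ± 4.95 (n = 5) in vehicle BPH/2J and 33.1 ± 1.74 (n = 4) in treated BPH/2J. Zfp969 supplied 10.05% to 12.4% of the pair in vehicle BPN/3J and 10.7% to 13.3% in treated BPN/3J, but 57.2% to 67.0% and 62.7% to 64.2% in the BPH/2J groups. The pair's total thus differed far less between the strains than its division between the copies. The total was still lower in BPH/2J without overlap in both arms. Under vehicle it ranged over 41.6 to 45.5 CPM in BPN/3J and 28.4 to 40.9 in BPH/2J. Under Cmpd17b it ranged over 39.4 to 46.5 and 30.8 to 34.7 CPM. Zfp991 and Zfp992 together made 14.4 ± 2.19 (n = 4) and 12.4 ± 1.37 CPM (n = 5) in vehicle and treated BPN/3J, and 16.2 ± 8.14 (n = 5) and 15.6 ± 10.8 (n = 4) in BPH/2J. Zfp991 supplied 79.8% to 91.2% of that pair in BPN/3J libraries and 10.9% to 45.1% in BPH/2J libraries.

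Sums were also taken over whole families, where each copy had 90% identity or more with at least 1 other copy, but not with every copy. Zfp979 and Zfp981 were 84.7% identical in their longest aligned block, and Zfp990 and Zfp991 85.8%. Zfp984, Zfp985 and Zfp990 shared no 150-base window with another gene, so these sums also join genes whose reads can be told apart. The 7 chromosome 2 copies, Zfp966 to Zfp971 without Zfp972 and with Zfp973, summed to 44.7 ± 1.59 and 43.4 ± 2.7 CPM in vehicle and treated BPN/3J and to 40.0 ± 5.12 and 37.0 ± 3.58 in BPH/2J. Fitted as 1 gene, this family differed by −0.16 ± 0.10 under vehicle and −0.23 ± 0.10 under Cmpd17b on the log2 scale. The 8 chromosome 4 copies around Zfp990 (Zfp984, Zfp985, Zfp987, Zfp988 and Zfp990 to Zfp993) summed to 23.9 ± 3.30 and 21.4 ± 1.79 CPM in BPN/3J and to 24.5 ± 9.68 and 23.8 ± 14.2 in BPH/2J, a log2 difference of 0.03 ± 0.29 and 0.15 ± 0.29. Zfp981 with Zfp978, Zfp979 and Zfp980 differed by −0.11 and −0.37, where Zfp981 alone was higher in BPH/2J. With close copies summed, 6 of 41 tested members or families passed edgeR's adjusted p under vehicle (14.6%, where 10.7% of all genes in that fit did) and 8 of 41 under Cmpd17b (19.5%, where 10.3% did). Whether reads or transcripts moved between copies was not tested, since the counting tool is not given in the sources used here and the BPH/2J genome was not used here.

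**Figure D4:**
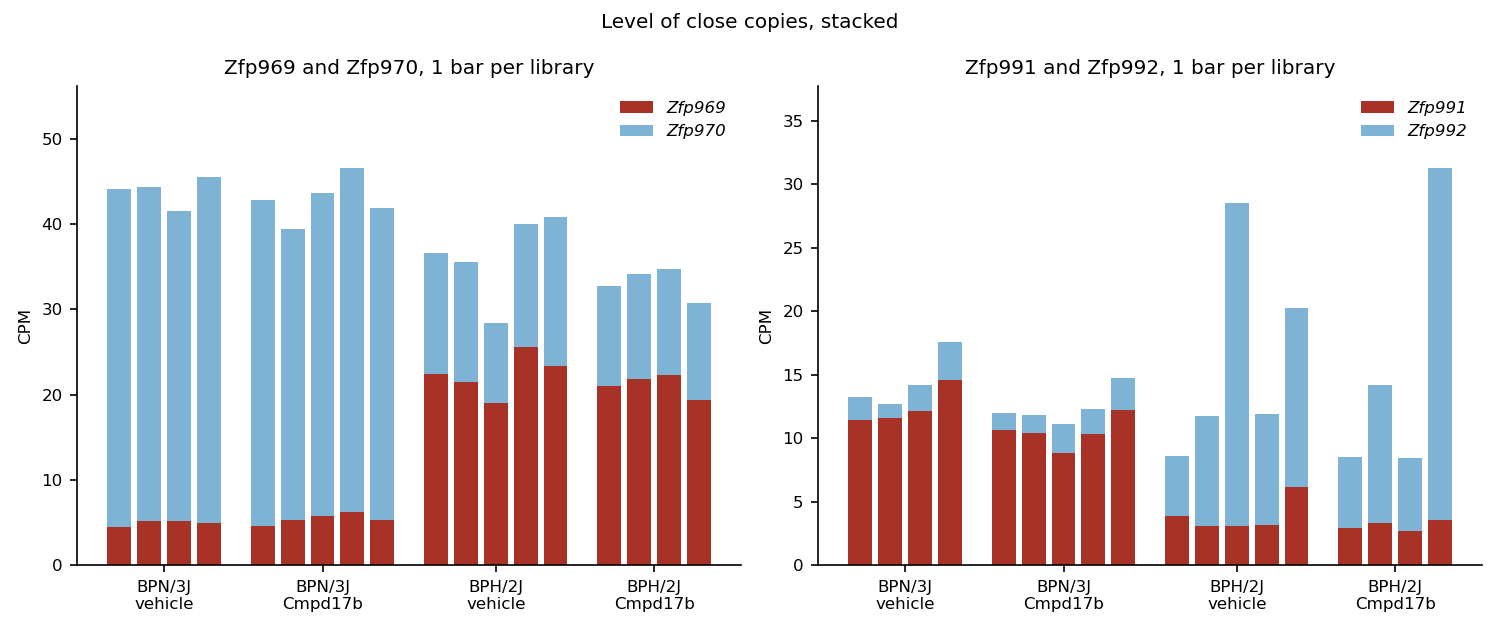
CPM of Zfp969 and Zfp970 (left) and of Zfp991 and Zfp992 (right) stacked in 1 bar for each library (vertical axis), by strain and treatment (horizontal axis). The red share of the bar changes sides between the strains in both pairs, while mean bar heights by group are 33.1 to 43.9 CPM on the left and 12.4 to 16.2 CPM on the right, where single BPH/2J bars vary widely.

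Outside these clusters Zfp951, on chromosome 5, showed the strongest difference, and it has no 150-base window in common with another gene. It stood at 0.306, 0.352, 0.773 and 1.37 CPM in vehicle BPN/3J and 10.5, 14.9, 15.1, 16.9 and 17.3 in vehicle BPH/2J. In treated mice it stood at 0.475, 0.634, 0.665, 0.774 and 1.19 in BPN/3J and 10.9, 13.2, 16.4 and 21.5 in BPH/2J. The strains were far apart in all 18 libraries, with log2 differences of 4.42 ± 0.38 and 4.37 ± 0.35. Zfp932, also on chromosome 5, ranged over 11.7 to 13.8 and 11.7 to 13.1 CPM in vehicle and treated BPN/3J and 17.4 to 26.9 and 18.3 to 23.2 in BPH/2J, with log2 differences of 0.72 ± 0.12 and 0.69 ± 0.11. Zfp941, on chromosome 7, ranged over 1.64 to 2.44 and 1.93 to 3.10 CPM in BPN/3J and 3.37 to 5.86 and 3.34 to 5.57 in BPH/2J, with log2 differences of 1.09 ± 0.22 and 0.84 ± 0.21. Neither gene's BPH/2J libraries overlapped its BPN/3J libraries. Zfp952, on chromosome 17 but outside its cluster, was lower in BPH/2J without overlap, at 10.3 to 12.2 and 10.3 to 12.6 CPM in BPN/3J and 8.13 to 9.90 and 7.57 to 9.0 in BPH/2J. Its difference was small, −0.26 ± 0.11 under vehicle, where it did not pass, and −0.36 ± 0.11 under Cmpd17b, where it did.

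The chromosome 17 cluster had as many members as that of chromosome 2, and all 10 were tested. By edgeR 0 of 10 passed between the strains in each arm (10.8% and 10.4% of all genes), with 2 at an unadjusted p under 0.05 in each. DESeq2 called 1 and 0, and limma-voom 0 and 0. A count of 0 in 10 is close to the share over all genes. Their log2 differences lay between −0.39 and 0.35 under vehicle and between −0.31 and 0.57 under Cmpd17b. The CPM ranges of the strains did not overlap for 1 of them, Zfp946, under vehicle and for 0 under Cmpd17b (13.6% and 12.8% of all genes). In the small clusters, 0 of 3 and 1 of 3 members passed on chromosome 7, and 1 of 3 and 0 of 3 on chromosome 8. Genes that lie among the members but are not members were also read off: 10 of 17 tested neighbours passed in the chromosome 2 cluster in each arm, 7 higher and 3 lower in BPH/2J, 2 of 3 in the chromosome 4 cluster and 0 of 6 in the chromosome 17 cluster. Passing neighbours thus lay in the clusters that held most of the passing members. Some neighbours are themselves close copies of members, at 90% identity or more. Among those that passed, these include Znf41-ps and Rex2 on chromosome 4 and Gm2026 on chromosome 2. Gm14421 on chromosome 2 is also such a copy and did not pass. The neighbours are therefore not a set of genes unrelated to the members. The 0 of 6 tested neighbours on chromosome 17, and 0 of 4 on chromosome 8, are close to the share over all genes.

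KRAB zinc fingers act through shared silencing proteins. From a list of 38 such cofactor genes, all tested, 1 passed between the strains in each arm (2.63%). Over all genes 10.8% passed under vehicle and 10.4% under Cmpd17b, so the list had fewer calls than that share. The gene was Rbbp4, a histone-binding subunit of several repressor complexes, higher in BPH/2J. It averaged 173 CPM in vehicle BPN/3J and 255 in vehicle BPH/2J, a log2 difference of 0.56 ± 0.10. Trim28 averaged 54.6 and 61.3 CPM (0.17 ± 0.09), and Setdb1 25.8 and 27.5 CPM (0.09 ± 0.09), and neither passed. The median log2 difference over the list was −6.6e-05 under vehicle and −0.02 under Cmpd17b (all genes 0.04 and 0.01).

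No member passed the test for Cmpd17b in either strain. In BPH/2J, 0 of 51 members passed edgeR's adjusted p of 0.05, where 0.164% of all tested genes did, and 0 members had an unadjusted p under 0.05, where 3.7% of all genes did. DESeq2 called 0 (1 at an unadjusted p under 0.05) and limma-voom 0 (0). Fitted log2 changes ran from −0.52 for Zfp979 to 0.65 for Zfp981, and for 42 of the 51 members the 95% interval lay within a 2-fold change either way. For those 42 a larger change than that lies outside the interval, while for the other 9 it does not. The smallest p was that of Zfp956, at 4.35, 5.43, 5.68, 6.83 and 7.13 CPM in vehicle and 5.12, 6.74, 8.10 and 12.1 in treated BPH/2J. Its log2 change was 0.44 (−0.02 to 0.89, edgeR adjusted p 1), with overlapping groups. Zfp976 followed, at 3.13, 3.52, 4.07, 4.27 and 4.59 CPM in vehicle and 1.90, 2.81, 3.27 and 3.93 in treated mice, a change of −0.39 (−0.80 to 0.02, edgeR adjusted p 1). Zfp970, the most abundant member, changed by −0.22 (−0.48 to 0.05, edgeR adjusted p 1).

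In BPN/3J, 0 of 51 members passed, where 0% of all genes did, and 1 member had an unadjusted p under 0.05, where 2.53% of all genes did. DESeq2 called 0 (2 at an unadjusted p under 0.05) and limma-voom 0 (2). Of the 48 members with more than 3 counts in both groups, log2 changes ran from −0.43 for Zfp977 to 0.33 for Zfp979, and 41 intervals lay within a 2-fold change either way. Zfp939 was the member with an unadjusted p under 0.05. It stood at 4.46, 4.67, 4.85 and 6.29 CPM in vehicle and 3.40, 3.46, 3.91, 4.14 and 4.25 in treated BPN/3J, without overlap, where 0.755% of all genes were lower without overlap. Its log2 change was −0.40 (−0.74 to −0.06), with an edgeR p of 0.0237 and an adjusted p of 1. Zfp964 was at 3.42, 3.43, 3.72 and 3.97 CPM in vehicle and 2.21, 2.76, 2.85, 3.12 and 3.43 in treated mice, a change of −0.34 (−0.68 to 0.0043, edgeR adjusted p 1). These are also the 2 members whose strain difference passed under vehicle only: Zfp939 differed by −0.68 ± 0.16 under vehicle and −0.23 ± 0.17 under Cmpd17b, and Zfp964 by −0.57 ± 0.16 and −0.19 ± 0.17. Both pairs of values share the BPN/3J libraries, so the agreement is not separate evidence.

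The interaction, which asks whether Cmpd17b acted differently in the 2 strains, passed for 0 of 51 members, where 0.0304% of all genes passed, and 1 member had an unadjusted p under 0.05, where 3.22% of all genes did. DESeq2 called 0 (2 at an unadjusted p under 0.05) and limma-voom 0 (1). The member was Zfp947, at 1.55, 1.79, 2.20 and 2.20 CPM in vehicle and 1.11, 1.32, 1.45, 1.46 and 1.85 in treated BPN/3J, and at 0.759, 1.04, 1.54, 1.90 and 2.14 in vehicle and 1.5, 2.12, 2.17 and 2.26 in treated BPH/2J. Its groups overlapped within each strain, and the interaction was 0.88 (0.08 to 1.67, edgeR adjusted p 1). For Zfp939 and Zfp964 the interaction was 0.45 (−0.04 to 0.94) and 0.38 (−0.11 to 0.87), both with 0 inside the interval.

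**Figure D5:**
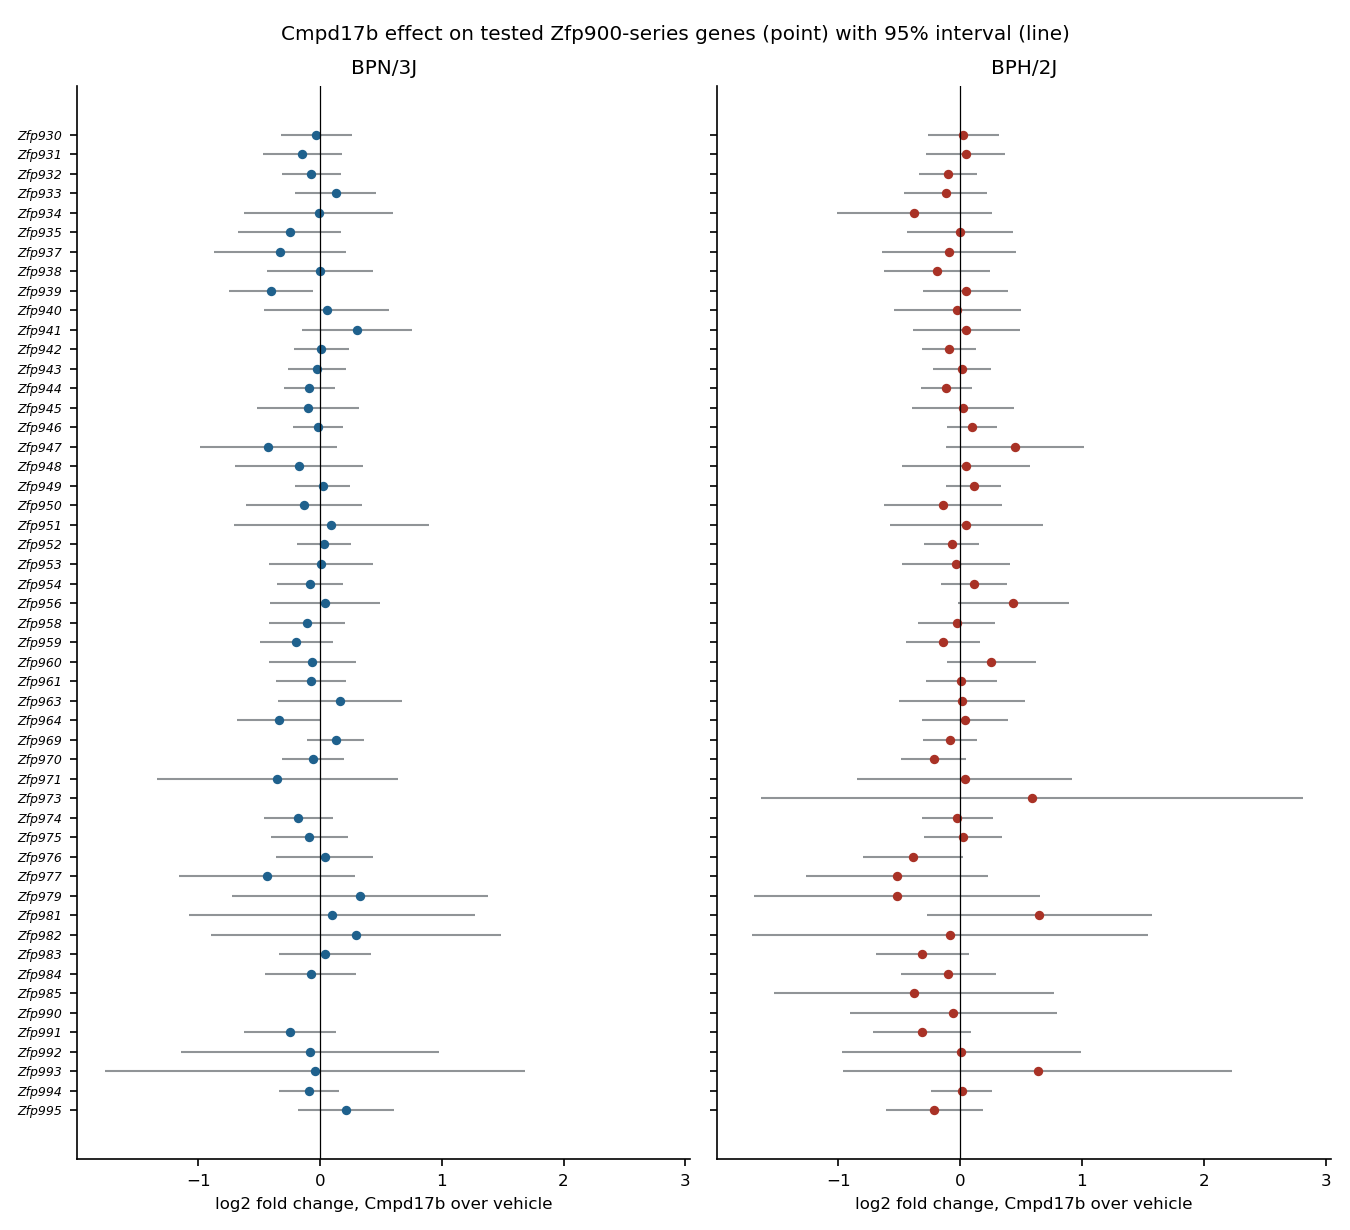
Log2 change with Cmpd17b and its 95% interval (horizontal axis) for each tested member (vertical axis) in BPN/3J and in BPH/2J, with no point where a group had 3 counts or fewer. Intervals cover 0 for every member in BPH/2J, and Zfp939 in BPN/3J is the member whose interval does not.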

How the data were processed

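RNA was sequenced from whole kidneys of BPN/3J and BPH/2J mice given vehicle or Cmpd17b. The authors deposited 1 table of estimated counts per gene symbol. The submitters' processing notes name STAR 2.7.9a, Trim Galore 0.6.7 and the mm39 build. No source used here names the counting tool or says how it treated reads shared by copies. In each library 4.63% to 10.1% of the values are not whole, and all were rounded.

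The members and the lists used here were chosen with earlier results of these data known. One fit over the 4 groups used edgeR 4.0.16 (quasi-likelihood, robust, TMM scaling) on 18 libraries and 16421 genes, after a filter at 10 counts (15 in total), with Benjamini-Hochberg adjustment over all genes and a threshold of 0.05. The biological coefficient of variation was 0.251. The library with a heart profile was left out. CPM values are scaled by TMM factors, except those of cell type markers, the total of the 66 genes and comparisons with the heart-profile library. Fold changes are BPH/2J over BPN/3J or Cmpd17b over vehicle, and intervals are 95%. Replicates are different mice, and replicate numbers follow only the order of the labels. Members given with values are Zfp969, Zfp970, Zfp971 and Zfp981, the 12 with the largest vehicle strain difference among those whose ranges did not overlap, the 5 with the highest mean CPM and the 3 with the smallest p in each Cmpd17b comparison and in the interaction. Others named (such as Zfp931, Zfp932, Zfp952, Zfp973 and Zfp993) were chosen after their values were seen. Copies, clusters, gene order and coding sequences come from GENCODE M21 and RefSeq on GRCm38 (62 of 66 symbols matched in each), with BLAST+ 2.17.0 and Biopython 1.88; since the counts use another build, no coordinates are given. Alternatives were DESeq2 1.42.0, limma-voom 3.58.1, other scaling, filters and library sets, leaving out each library, and summing close copies. Counting intervals and floors cover counting error only.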

Additional observations from a re-analysis of the deposited data

Results flagged for a closer look

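In 4 of 84 groups of member values examined, 1 library stood apart from the rest of its group, and chance flags about 1 in 20 groups. Zfp937 was at 30.2 CPM in BPN/3J vehicle replicate 4, where the next library of the group was at 22.7 CPM. Zfp942 was at 22.5 CPM in the same library, where the next was at 17.9 CPM. Zfp991 was at 6.18 CPM in BPH/2J vehicle replicate 5, where the next was at 3.87 CPM and the lowest vehicle BPN/3J library was at 11.4 CPM. Zfp990 was at 0.0317 CPM in BPN/3J Cmpd17b replicate 1, from 1 count, where the 4 other libraries of the group had none.

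The library with a heart profile was used in no comparison. In it Zfp971 was at 12.3 CPM and Zfp979 at 9.50 CPM (neither scaled by TMM factors), where the 18 kidney libraries reached at most 5.81 and 1.88 CPM. Of the 13 members that separated the strains in both arms, this library lay within the BPH/2J range alone for 5 and within the BPN/3J range alone for 2. It lay above all 18 kidney libraries for 3, below all for 2 and between the strains for 1, Zfp951 at 2.62 CPM. Among those above, Zfp969 was at 42.7 CPM and Zfp970 at 51.0 CPM. With 1 such library there is no replicate and no test.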

How the results depend on the processing

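No paired analysis was possible because the labels give every mouse its own number and the replicate numbers follow only their order. The number of members called between the strains was 13 to 18 in each arm over fits that left out 1 library. Of the members called, 12 of 15 (vehicle) and 12 of 18 (Cmpd17b) were called in every one of those fits. Under vehicle, calls were lost for Zfp939 without BPN/3J vehicle replicate 1 (log2 difference −0.73 to −0.56 over all such fits), for Zfp981 without BPN/3J vehicle replicate 3 (1.73 to 2.30) and for Zfp964 in 6 fits, any of the 4 BPN/3J vehicle libraries or BPH/2J vehicle replicate 2 or 4 being left out (−0.61 to −0.49). Under Cmpd17b, calls were lost for Zfp931 without BPH/2J Cmpd17b replicate 3 or 4 (0.51 to 0.71), for Zfp941 without replicate 2 or 4 of that group (0.71 to 0.95) and for Zfp976 without its replicate 2 or 5 or BPN/3J Cmpd17b replicate 2 (−0.88 to −0.57). Zfp933 (−0.65 to −0.48), Zfp952 (−0.39 to −0.31) and Zfp973 kept theirs in 12, 12 and 8 of 18 fits, each losing it without several libraries of both strains. The 7 other tools, scalings, filters and library sets tried on 18 libraries gave 13 to 19 and 12 to 19. With all 19 libraries the vehicle comparison gave 9, while calls over all genes fell from 1766 of 16421 to 566 of 16522. The Cmpd17b comparison gave 13 members, with 1446 of 16522 genes called. The cause was not tested. With close copies summed, an alternative chosen after seeing the data, 6 and 8 of 41 members or families were called (14.6% and 19.5%, where 10.7% and 10.3% of all genes were). That sum turned the direction of Zfp969 and Zfp971 (−0.16 under vehicle, −0.23 under Cmpd17b), Zfp981 (−0.11 and −0.37) and Zfp984 and Zfp991 (0.035 and 0.15), since each takes its family's value. Families are linked through any close copy, so a family also holds members below 90% identity to each other, and Zfp984 shares no 150-base window with another gene. Of 1316 values of single members under the other settings, 1283 moved by less than the spread between replicates or stayed on their side of the threshold, 32 moved more and 1 reversed: the change of Zfp970 with Cmpd17b in BPH/2J, 0.72 with all 19 libraries. For the Cmpd17b comparisons and the interaction, 0 members were called by edgeR, DESeq2 and limma-voom under every setting run. Summing copies by protein identity was planned and not run, because no protein sequences were used here. Depth limits the members below about 1 CPM, such as Zfp973, Zfp981, Zfp982 and Zfp985.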
